A study of Mus musculus with 12 samples.

Results

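The nuclear genes of respiratory complexes II to V were described in ChIP-seq peak lists from mouse liver. The genes were the protein-coding genes of GENCODE mouse release M21 named Cyc1 or Surf1, or named by the families Sdha to Sdhd, Sdhaf, Uqcr, Uqcc, Cox, Coa, Sco and Atp5. This gave 73 genes with 72 gene symbols among 21853 protein-coding genes outside the mitochondrial chromosome. Complex II had 8 genes, complex III 12, complex IV 35 and complex V 18. The symbol Atp5o stood for 2 gene entries, of which the second had 1 annotated start. The choice of genes used names and no measured value.

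These complexes carry electrons from succinate and ubiquinol to oxygen and use the resulting proton gradient to make ATP. Complex II (succinate dehydrogenase) also belongs to the citric acid cycle. Complex III passes electrons from ubiquinol to cytochrome c, complex IV (cytochrome c oxidase) passes them to oxygen, and complex V is the ATP synthase. Mitochondrial DNA encodes cytochrome b of complex III, the catalytic core of complex IV and a few membrane subunits of complex V. Most subunits and all assembly factors therefore come from nuclear genes such as those described here. LSD1, encoded by Kdm1a, is a histone demethylase that removes mono- and dimethyl marks from lysine 4 of histone H3, and H3K4me2, the dimethyl mark, is found around the transcription start sites (TSSs) of active genes.

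LSD1 ChIP was done on liver of wild-type C57BL/6 mice. H3K4me2 ChIP was done on liver of adult LSD1 fl/fl mice given AAV8-TBG-GFP (GFP control) or AAV8-TBG-Cre (LSD1-LKO). The Tbg promoter drives Cre in hepatocytes, so other liver cells kept an intact LSD1 gene. Each of these 3 groups had 2 ChIP libraries and 2 control libraries, which made 12 samples. The methods describe a high-fat diet after the injections for LSD1-LKO and GFP control mice in general and name no diet for the ChIP-seq mice. No LSD1 ChIP of LSD1-LKO liver is among these data, so the deletion was not checked here.

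The lists held 14584 LSD1 entries, 43891 control H3K4me2 entries and 50675 LSD1-LKO H3K4me2 entries. Each entry paired a peak of one library, here the first-listed, with an overlapping peak of the other, the second-listed, and a peak seen in a single library was not listed. An absence in both libraries of a group is therefore 1 observation and not 2. Sequencing depth is unknown from these lists. First-listed peaks were shorter, with median widths of 648 bp in control against 565 bp in LSD1-LKO against 1161 and 1240 bp for second-listed peaks. The names of first-listed H3K4me2 peaks in both groups carried the word picard, a read-processing toolkit, and those of second-listed peaks did not. By first-listed intervals, the LSD1-LKO list had H3K4me2 at the promoters of 5 of 5 hepatocyte markers (Alb, Ttr, Apoa1, Cps1, Hnf4a) and the control list at 3 of 5, without Alb and Cps1. The second-listed control library covered 1375 bp at Cps1 and 0 bp at Alb. Both lists had 0 of 5 markers of other liver cells (Clec4f, Stab2, Col1a1, Krt19, Ptprc) and 0 of 5 of other organs (Gfap, Myh6, Ins2, Umod, Sftpc). In whole liver, a mark in fewer cells and a weaker mark in every cell cannot be told apart.

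Promoters were all bases within 1000 bp of any annotated TSS of the gene. By this measure 24 of 73 genes, 32.9%, had an LSD1 promoter peak, beside 23.6% of all protein-coding genes. An H3K4me2 promoter peak was listed for 62 genes in control and for 65 in LSD1-LKO, beside 58.8% and 58.9% of all genes. Among the 66 genes with H3K4me2 in either list, here called marked genes, 24 (36.4%) had LSD1, close to the 37.6% of all marked genes. The higher share of LSD1 over all 73 genes thus was not seen once marked genes were compared with marked genes. By complex, LSD1 was at 4 of 8 genes of complex II, 4 of 12 of complex III, 10 of 35 of complex IV and 6 of 18 of complex V.

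**Figure D1:**
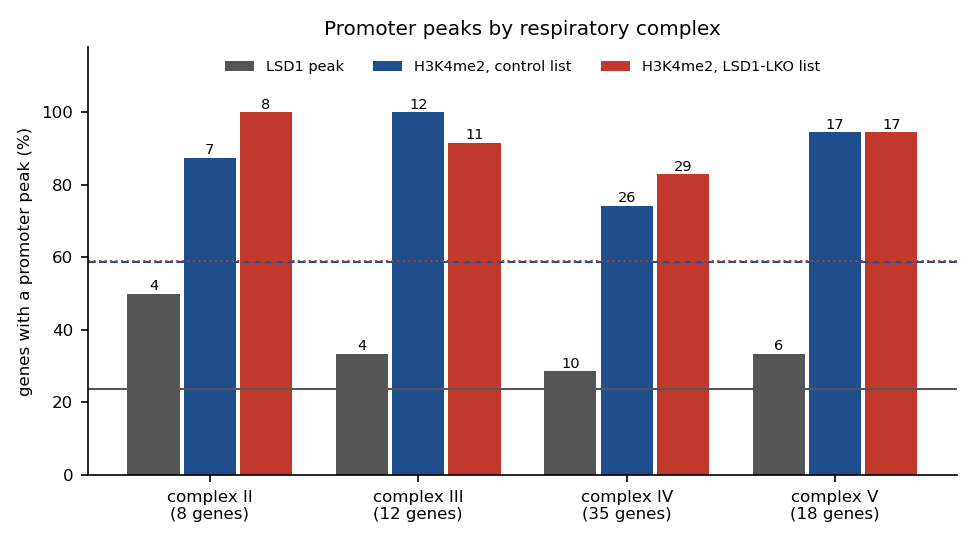
Bars give the percentage of genes in each complex with a promoter peak for LSD1 (grey), for H3K4me2 in the control list (blue) and for H3K4me2 in the LSD1-LKO list (red), with gene counts above the bars. Horizontal lines in the same colours mark the shares over all protein-coding genes, 23.6% (solid), 58.8% (dashed) and 58.9% (dotted), and every bar lies above its line.

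The 24 genes had 25 LSD1 promoter peaks, with 2 at Atp5g2. Their fold enrichment, the MACS ratio of ChIP signal to local background, ranged from 1.56 to 12.7 over both libraries. Peaks were ranked within the LSD1 list by −log10 p-value, averaged over both libraries, and the rank is given as a percentile. The median percentile was 62.1, beside 70.5 for all 5113 LSD1 promoter peaks. The peaks covered a TSS in 17 of 25 cases, their centres lay a median of 185 bp from the nearest TSS, and 16 of 25 centres were within 250 bp. Of the centres, 9 lay in introns, 8 in untranslated exons, 2 in coding exons and 6 outside the gene's protein-coding transcripts.

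In complex II the LSD1 peaks were at genes of the matrix arm and at assembly factors. Sdhb, the iron-sulfur subunit, had a peak at chr4:140961195-140961796 (mm10), centred in an intron 292 bp downstream of the TSS, with fold enrichments of 5.66 and 5.38. Sdha, the flavin-bearing catalytic subunit, had folds of 3.66 and 5.03 in a peak that also reached the promoter of Ccdc127, whose TSS lies 29 bp away. Sdhaf2, which helps to attach the flavin to Sdha, had folds of 4.30 and 7.69 and ranked at the 98.6 percentile, in a peak that reached the promoter of Cpsf7 as well. Sdhaf3, an assembly factor of Sdhb, had folds of 2.94 and 2.96. The membrane anchors Sdhc and Sdhd had no LSD1 promoter peak, and their nearest LSD1 peaks were 53980 and 13228 bp from a TSS.

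In complex III the Rieske iron-sulfur protein Uqcrfs1 had folds of 4.75 and 5.14. The core proteins Uqcrc2 and Uqcrc1 had folds of 4.34 and 3.77 and of 2.67 and 4.19. Uqcc2, an assembly factor for cytochrome b, had 2.46 and 2.96. Cyc1, the cytochrome c1 subunit, and the small subunit Uqcrq had no LSD1 promoter peak, with the nearest at 25164 and 7153 bp. Over the 49 genes of all complexes without an LSD1 promoter peak, the nearest LSD1 peak lay a median of 27449 bp from a TSS, and the closest was 2651 bp from Surf1.

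In complex IV the strongest LSD1 peak of all 25 was at Cox20, a chaperone for the mitochondrially encoded subunit Cox2. It spanned chr1:178318739-178319204, covered the TSS with its centre 159 bp upstream, and reached folds of 6.54 and 12.7 at the 99.9 percentile. Copper delivery factors had the weakest peaks. Cox19 had folds of 1.88 and 2.17 (2.73 percentile), Sco2 had 2.61 and 1.56 (3.09 percentile) and Cox17 had 3.29 and 1.74 (18.3 percentile). The structural subunits Cox4i1, Cox8a and Cox7c had folds of 2.50 and 6.06, of 4.45 and 2.82 and of 2.97 and 3.49. Cox10, which makes haem O, had 3.80 and 2.69, the supercomplex factor Cox7a2l had 2.71 and 2.55 and the assembly factor Coa7 had 2.23 and 3.81.

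In complex V all 3 genes for subunit c of the membrane ring carried LSD1, and so did the genes for both large subunits of the catalytic head, Atp5a1 (alpha) and Atp5b (beta). Atp5g1, Atp5g2 and Atp5g3 encode the same mature subunit c from different promoters. Atp5g3 had folds of 3.75 and 2.87 in a peak centred on its TSS, Atp5g1 had 3.24 and 3.43 at 1000 bp downstream of the nearest start, and the Atp5g2 peaks had 4.17 and 3.92 and 2.76 and 4.88. Atp5a1 had 4.83 and 3.51, Atp5b 2.74 and 3.23, and Atp5mpl, a small membrane proteolipid, 2.37 and 3.84. The other genes of the head and stalk, including Atp5c1 (gamma), Atp5d (delta), Atp5e (epsilon), Atp5f1 (subunit b) and Atp5o (the oligomycin-sensitivity subunit), had none.

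At stricter limits 21 of 24 genes kept a peak at a p-value of 0.01 or below in both libraries, and Cox17, Cox19 and Sco2 did not. At a q-value of 0.05 or below 7 genes remained, namely Sdhaf2, Sdhb, Uqcrc2, Uqcrfs1, Cox20, Atp5a1 and Atp5g2, beside 6.59% of all genes. At a p-value of 1e-05 or below the same genes without Atp5a1 were left, 6 in all, beside 5.49% of all genes. By peaks, 6 of 25 (24%) passed the p-value of 1e-05, beside 21.3% of all LSD1 promoter peaks.

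**Figure D2:**
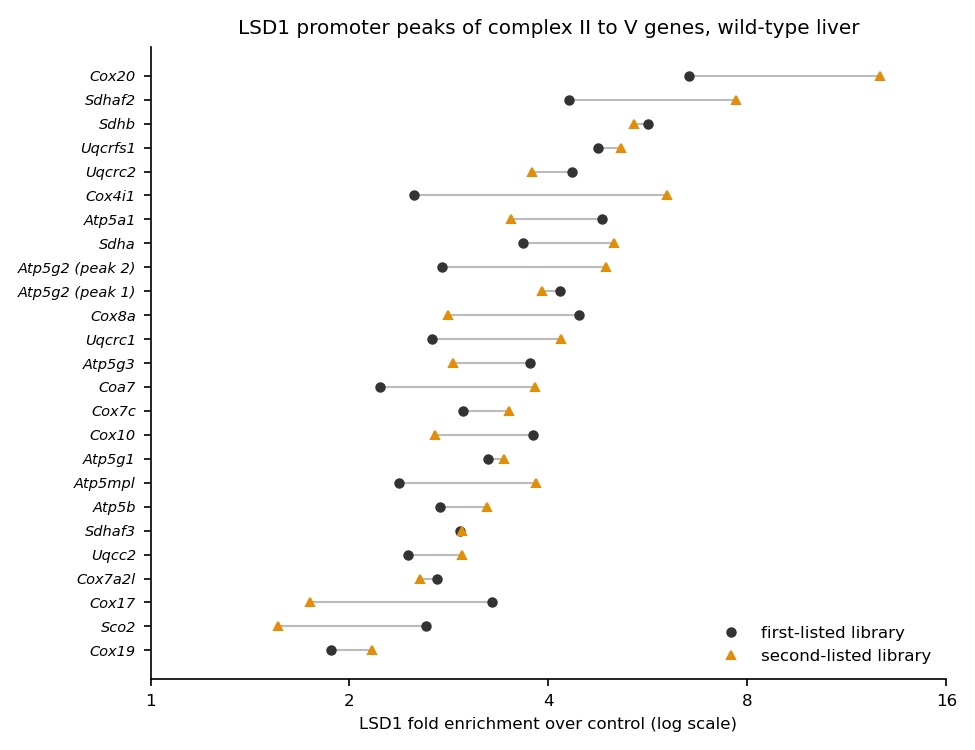
Points give the LSD1 fold enrichment over the control library (log scale) of each of the 25 promoter peaks in the first-listed (circles) and second-listed (triangles) wild-type library, ordered by percentile within the list from Cox20 at the top to Cox19. Cox20 stands at 6.54 and 12.7, and the copper delivery factors Cox17, Sco2 and Cox19 are at the bottom with at least one library at 2.17 or below.

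The LSD1 peaks lay on or beside H3K4me2. Of the 24 genes, 23 (95.8%) had an LSD1 peak that overlapped a control H3K4me2 peak, beside 92.9% of all genes with LSD1 promoter peaks. The exception was Sdhaf2, which had no control H3K4me2 promoter peak. The overlap was often partial. In the first-listed control library H3K4me2 peaks covered 3.86% of the Cox20 LSD1 peak, 20.3% of that at Sdhb, 23.0% at Uqcrc1 and 25.8% at Cox7c, and 11 of the 25 LSD1 peaks lay wholly inside H3K4me2, 44% beside 49.9% of all LSD1 promoter peaks. In the second-listed control library, with its wider peaks, 16 of 25 (64%) lay wholly inside, beside 73.4% of all LSD1 promoter peaks, and the Cox20 peak was covered at 100%. Whether LSD1 sits in a gap between H3K4me2 peaks or within one thus differed between the libraries.

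The promoter sequences were read from RefSeq (GRCm38.p6) as 250 bases before and 50 bases after each start. Of the 72 symbols 57 had an entry, 2 of them under a newer symbol. Motifs of factors known for mitochondrial genes were searched on both strands, with CGCATGCG for NRF1, which reads the same on both strands, CCGGAAGT for GABP, CAAGGTCA for ERR and AAGATGGC for YY1. A gene counted when any of its RefSeq promoters held the letters, and shares are set beside those of 17492 protein-coding genes in the table. The NRF1 letters were in 7 of 57 genes (12.3%), beside 2.77% (1.87% of all 32851 promoters), and the GABP letters in 8 (14.0%), beside 5.69% (3.89%). The ERR letters were in 4 (7.02%), beside 1.56% (1.56%), and the YY1 letters in 6 (10.5%), beside 3.57% (2.75%). In all 21 of 57 genes held at least 1 of these motifs. Their RefSeq promoters over the 57 genes had a median of 58.7% G and C and 19 CG dinucleotides, beside 56.3% and 13 over all protein-coding promoters. Motif shares were not compared at equal base composition or among marked genes alone. Of the 19 matched genes with LSD1, 2 held the NRF1 letters, 2 GABP, 1 ERR and 3 YY1, and of the 38 without, 5, 6, 3 and 3.

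These 4 promoters overlap an LSD1 peak and show 1 motif each, in capitals, with Cox20 for YY1 (chr1:178318903-178319202, plus strand), Atp5g2 for NRF1 (chr15:102670998-102671297, minus strand), Cox8a for GABP with 2 matches (chr19:7217567-7217866, minus strand) and Atp5g3 for ERR (chr2:73911277-73911576, minus strand). They show 1 promoter per motif. The promoters of Cox10 (GABP and YY1), Uqcc2 (YY1) and Uqcrc1 (NRF1) also overlapped an LSD1 peak and held motifs, and are not shown. The sequences are written 5′ to 3′ along the gene, and a match on the other strand appears as its reverse complement.
Cox20: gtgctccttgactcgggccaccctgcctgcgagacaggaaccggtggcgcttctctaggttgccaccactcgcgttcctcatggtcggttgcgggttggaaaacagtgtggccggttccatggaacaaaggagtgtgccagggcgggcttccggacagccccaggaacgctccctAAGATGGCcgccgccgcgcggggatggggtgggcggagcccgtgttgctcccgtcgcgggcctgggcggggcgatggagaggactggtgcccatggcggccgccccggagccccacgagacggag
Atp5g2: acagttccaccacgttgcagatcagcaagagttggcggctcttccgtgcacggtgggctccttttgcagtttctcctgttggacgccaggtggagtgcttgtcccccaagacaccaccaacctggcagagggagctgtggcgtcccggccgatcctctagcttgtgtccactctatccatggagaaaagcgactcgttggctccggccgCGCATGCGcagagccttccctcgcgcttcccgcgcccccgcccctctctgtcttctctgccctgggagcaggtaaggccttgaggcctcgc
Cox8a: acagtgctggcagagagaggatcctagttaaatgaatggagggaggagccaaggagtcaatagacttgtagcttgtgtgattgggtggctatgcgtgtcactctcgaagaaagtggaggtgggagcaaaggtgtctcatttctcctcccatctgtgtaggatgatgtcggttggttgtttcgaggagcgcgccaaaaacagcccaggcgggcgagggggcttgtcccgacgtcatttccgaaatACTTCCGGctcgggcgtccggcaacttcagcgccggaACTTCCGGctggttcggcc
Atp5g3: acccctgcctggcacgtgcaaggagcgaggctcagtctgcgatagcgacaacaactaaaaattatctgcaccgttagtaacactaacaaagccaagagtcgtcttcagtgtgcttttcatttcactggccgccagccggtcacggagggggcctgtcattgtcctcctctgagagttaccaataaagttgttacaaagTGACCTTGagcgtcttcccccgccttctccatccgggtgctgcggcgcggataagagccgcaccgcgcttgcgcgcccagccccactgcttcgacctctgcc

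H3K4me2 around these genes was compared between control and LSD1-LKO by the number of promoter bases inside peaks, the covered length, in each of 4 libraries. Values are given below as first-listed and second-listed library of a group. Over the 66 marked genes the median covered length was 1564 and 1821 bp in control against 1315.5 and 1798 bp in LSD1-LKO. The median change between group means was -151.5 bp over marked genes and -123.5 bp over all 73, beside -36 bp over all 13553 marked genes. With peaks closer than 500 bp merged it was -15 bp over the 73 genes (-7.5 bp over all marked genes), and with 1 TSS per gene -62 bp (-36 bp). At p-values of 0.01 or below and 1e-05 or below it was -71 bp, beside -37.5 and -90.5 bp. At a q-value of 0.05 or below it was also -71 bp, beside -68 bp. Taken library by library the change was -215.5 bp between the first-listed libraries, beside -111 bp over all marked genes, and 0 bp between the second-listed libraries, beside 12 bp. The lower coverage was thus seen in the first-listed pair and not in the second-listed pair. Without the first-listed LSD1-LKO library the median change over the 73 genes was 77 bp, without the second-listed control library -1.5 bp, and without either of the other libraries -183.5 bp (first-listed control) and -281.5 bp (second-listed LSD1-LKO). These medians move with which libraries are compared, and the part of the difference in peak width between libraries was not tested.

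**Figure D3:**
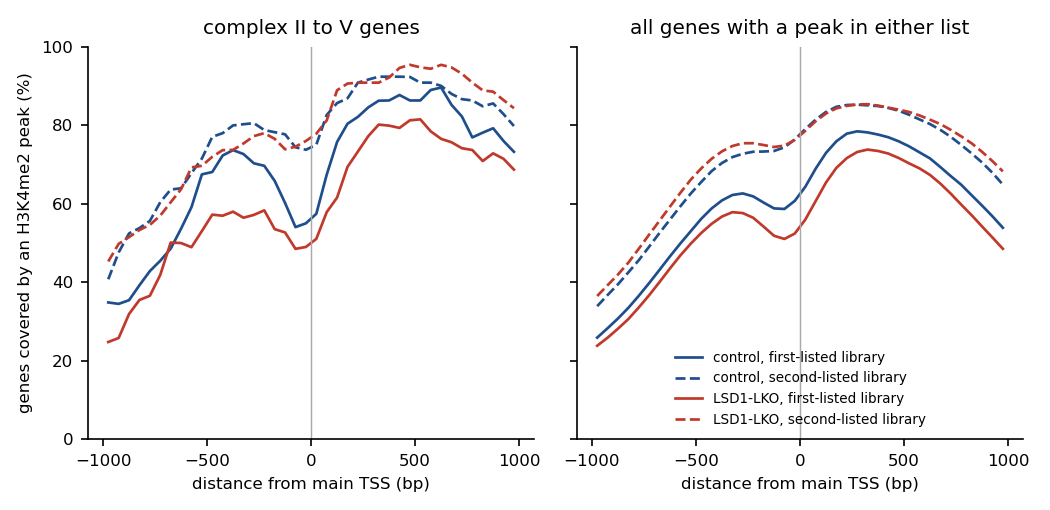
Lines give the percentage of genes whose position, in bins of 50 bp from the main TSS, lies inside an H3K4me2 peak in each of the 4 libraries (blue control, red LSD1-LKO, solid first-listed, dashed second-listed), for the 66 marked complex II to V genes (left) and all 13553 marked genes (right). Just upstream of the TSS, at -175 bp, the first-listed libraries covered 65.8% of the complex II to V genes in control and 53.5% in LSD1-LKO, and the second-listed libraries 78.3% and 76.6%.

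At 16 of the 66 marked genes (24.2%) both LSD1-LKO libraries were below both control libraries, beside 17.3% of all marked genes. At 8 genes (12.1%) both were above, beside 14.6%. In an exact permutation test over 4 libraries (two-sided) these 24 genes have p = 0.333, the smallest that this test allows with 2 against 2 libraries, so no single gene can pass it. Of the 8, Sdhaf2, Cox6a1, Cox6b2 and Cox7a2 had no listed control peak, and Uqcrc2 among the 16 had no listed LSD1-LKO peak. Such an absence is 1 observation, but it entered here as 2 values of 0 bp. Among genes with a peak in both lists, an alternative chosen after seeing the data, 15 of 61 (24.6%) were below, beside 13.9%. In the same genes 4 (6.56%) were above, beside 10.7%. The count of 16 was 31 without the first-listed control library, beside 40.1% of all marked genes, and 45 without the second-listed LSD1-LKO library, beside 56.5%. The count of 8 was 16 without the second-listed control library, beside 37.5%, and 24 without the first-listed LSD1-LKO library, beside 47.6%. Paired by list position alone, 24 of 66 genes (36.4%) were lower in both the first-listed and the second-listed pair, beside 30.0% of all marked genes. In the same pairs 8 (12.1%) were higher in both, beside 25.3%.

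With an LSD1 promoter peak, 9 of 24 genes (37.5%) had both LSD1-LKO libraries below both control libraries, beside 15.0% of all marked genes with LSD1. Without LSD1 the count was 7 of 42 (16.7%), beside 18.7%. The 9 genes were Sdhaf3, Uqcrc2, Cox17, Cox19, Cox4i1, Cox7c, Cox8a, Sco2 and Atp5g2, and Cox17, Cox19 and Sco2 among them had the weakest LSD1 peaks. The groups were narrowly apart at 2 of the 9. The lower control value was 1607 bp at Sdhaf3 and 1282 bp at Cox17, and the higher LSD1-LKO value was 1606 and 1280 bp. Uqcrc2 had no listed LSD1-LKO peak. At a q-value of 0.05 or below only Uqcrc2 and Atp5g2 of the 9 kept an LSD1 peak. Among genes with H3K4me2 in both lists the count was 8 of 22 (36.4%), beside 14.2%. The difference between genes with and without LSD1 was not tested.

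**Figure D4:**
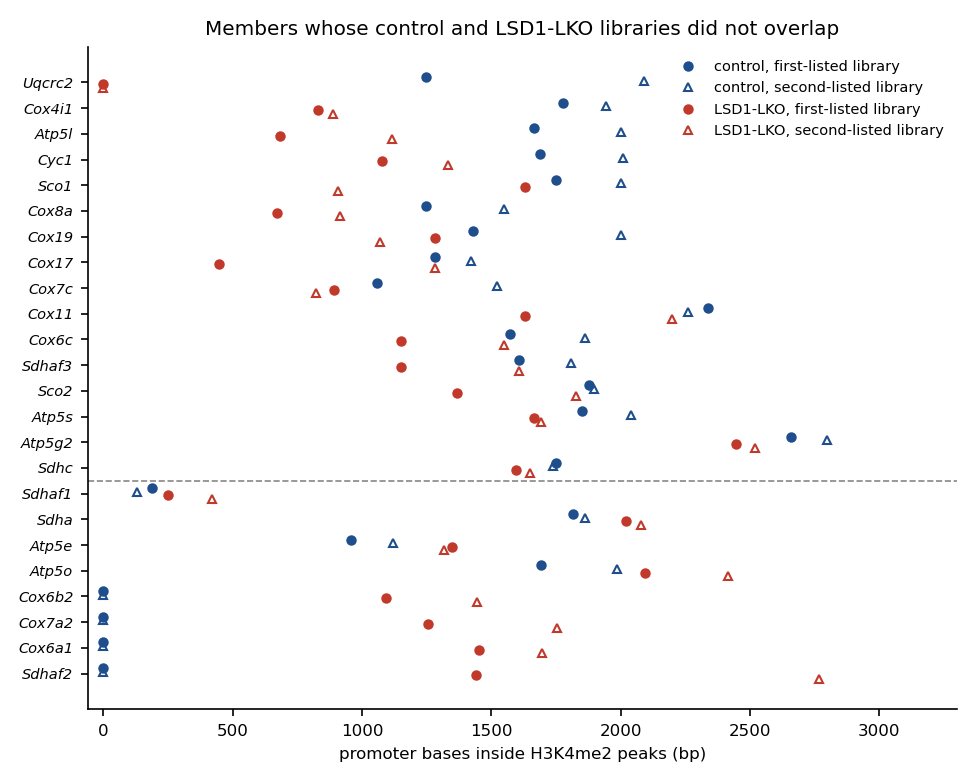
Points give the promoter bases inside H3K4me2 peaks (bp) in each of 4 libraries for the 24 genes whose control (blue) and LSD1-LKO (red) libraries did not overlap, with circles for first-listed and open triangles for second-listed libraries. Above the dashed line are the 16 genes with shorter coverage in LSD1-LKO, from Uqcrc2 at 1248 and 2088 bp against 0 and 0 bp to Sdhc, and below it the 8 with longer coverage.

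In complex II, 2 of 8 genes (25%) were shorter in both LSD1-LKO libraries and 3 (37.5%) longer, beside 17.3% and 14.6% of all marked genes. Sdha had 1814 and 1862 bp in control against 2020 and 2080 bp in LSD1-LKO. Sdhaf2 had no listed H3K4me2 promoter peak in control and 1439 and 2765 bp in LSD1-LKO. Sdhaf1, an assembly factor of Sdhb, had short stretches at the edge of the interval around its 1 annotated start. They were 188 and 130 bp in control against 251 and 418 bp in LSD1-LKO. Its RefSeq promoter, chr7:30322326-30322625, lay outside that interval and overlapped H3K4me2 in both lists, so the covered length leaves this start out. The peaks ran beyond the interval, and their strength went the other way. Folds were 3.53 and 8.70 in control (95.6 percentile of its list) against 2.56 and 3.96 in LSD1-LKO (48.2 percentile). Sdhc had 1750 and 1739 bp in control against 1594 and 1648 bp in LSD1-LKO. Sdhaf3 had 1607 and 1809 bp in control against 1150 and 1606 bp in LSD1-LKO, so the groups were 1 bp apart. Sdhb had 1105 and 1719 bp against 643 and 1855 bp, and Sdhd, whose TSS is 98 bp from that of Timm8b, had 1690 and 959 bp against 1125 and 1693 bp. Both overlapped between groups, as did Sdhaf4, a chaperone of flavin-bound Sdha, with 1164 and 1511 bp against 1385 and 1477 bp.

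In complex III, Uqcrc2 was the one gene of all 73 with H3K4me2 in the control list only, a pattern seen in 4.99% of all marked genes. Its control coverage was 1248 and 2088 bp. The control intervals flanked the TSS in the first-listed library and ran across it in the second-listed library. Cyc1 had 1689 and 2007 bp in control against 1078 and 1333 bp in LSD1-LKO, with the coverage upstream of the TSS shorter in both LSD1-LKO libraries. The other 10 genes of complex III overlapped between groups. Among them Uqcrq had 2048 and 2185 bp against 1479 and 2394 bp, Uqcrfs1 1387 and 1613 bp against 1225 and 1832 bp, and Uqcrc1 824 and 1082 bp against 918 and 995 bp. Uqcrb, a ubiquinone-binding subunit, had 1253 and 2001 bp against 1533 and 575 bp. The hinge protein Uqcrh had 1423 and 2041 bp against 2011 and 2041 bp, at a promoter shared with Lrrc41. The small subunits Uqcr10 and Uqcr11 had 2001 and 2001 bp against 1540 and 2001 bp and 1557 and 1949 bp against 1725 and 1830 bp. The assembly factors for cytochrome b differed in which library was longer, with Uqcc1 at 1914 and 1833 bp against 1588 and 1906 bp, Uqcc2 at 1365 and 1139 bp against 1199 and 1382 bp, and Uqcc3 at 1167 and 1886 bp against 1190 and 1365 bp.

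Complex IV held 9 of the 16 genes with shorter coverage, and 29 of the 66 marked genes. The 9 were 31% of its marked genes, beside 17.3% of all marked genes, and 3 (10.3%) were longer, beside 14.6%. All 3 were genes without a listed control peak, given below. Cox4i1, the broadly expressed form of subunit 4, had 1778 and 1943 bp in control against 831 and 888 bp in LSD1-LKO. The interval downstream of its TSS was listed in both control libraries and in neither LSD1-LKO library, and the interval upstream, toward the divergent gene Emc8, was listed in all 4. Cox8a had 1247 and 1549 bp against 673 and 914 bp, and Cox7c had 1059 and 1521 bp against 890 and 820 bp. Copper delivery factors were among these genes, but not Coa6, a copper-binding factor that overlapped between groups, with a mean 356 bp longer in LSD1-LKO. Sco1 had 1749 and 2001 bp against 1630 and 907 bp, Cox19 1430 and 2001 bp against 1282 and 1071 bp, Cox17 1282 and 1422 bp against 446 and 1280 bp, Cox11 2338 and 2259 bp against 1631 and 2200 bp, and Sco2 1876 and 1896 bp against 1367 and 1826 bp. Cox6c, a small structural subunit, had 1571 and 1861 bp against 1149 and 1550 bp. Cox20, with the strongest LSD1 peak, had 1377 and 2001 bp against 1352 and 2001 bp. Cox10 had 2001 and 1801 bp against 700 and 1910 bp and overlapped between groups.

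Other assembly factors of complex IV also overlapped between groups, most of them with a lower first-listed value in LSD1-LKO. Coa4, with 1349 and 1918 bp against 1574 and 1918 bp, had a higher one. Cox15, which turns haem O into haem A, had 1770 and 1655 bp against 488 and 2001 bp. Coa3, a partner of newly made Cox1, had 1704 and 977 bp against 1201 and 2172 bp, and Coa6, a copper-binding factor, had 1947 and 953 bp against 1598 and 2014 bp. Coa7 had 1908 and 1711 bp against 1509 and 2001 bp, Cox18, which inserts Cox2 into the membrane, had 1873 and 1730 bp against 1201 and 2030 bp, and Cox16 had 1483 and 1638 bp against 1101 and 2048 bp. Surf1, whose loss causes complex IV deficiency, had 1947 and 2186 bp against 1819 and 2186 bp. Counting Cox7a2l with the assembly factors, 17 of 18 genes were lower in LSD1-LKO in the first-listed pair, beside 60.1% of all marked genes, and 6 of 18 in the second-listed pair, beside 42.1%. The structural subunits Cox5a and Cox5b had 1557 and 2001 bp against 1221 and 1920 bp and 1268 and 1621 bp against 1185 and 1627 bp.

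In complex IV 3 genes had H3K4me2 in the LSD1-LKO list only, which with Sdhaf2 made 4 of 66 (6.06%), beside 5.14% of all marked genes. Cox6a1 had 1451 and 1694 bp in LSD1-LKO, Cox7a2 1256 and 1754 bp and Cox6b2 1091 and 1444 bp, with no listed control peak at these promoters. Cox6a1 and Cox7a2 are the forms of subunits 6a and 7a that liver expresses, and Cox6b2 is known from testis. Because a control peak in a single library would not be listed, these genes may have had unlisted control signal. None of them had an LSD1 promoter peak, and Sdhaf2 had.

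The paralogs of complex IV with restricted expression were mostly without a listed H3K4me2 promoter peak. Of 7 such genes, Cox4i2 (lung), Cox6a2 and Cox8b (striated muscle), Cox7b2 and Cox8c (testis) had no H3K4me2 promoter peak in either list. Cox7a1, known from heart and muscle, had 680 and 1523 bp in control against 370 and 1164 bp in LSD1-LKO, and Cox6b2 was listed in LSD1-LKO as above. LSD1 was at 0 of these 7 promoters. Of the 6 broadly expressed forms, LSD1 was at Cox4i1 and Cox8a, and 5 were marked in either list. The exception was Cox7b on the X chromosome, where 609 bp were covered in the second-listed LSD1-LKO library by a peak whose first-listed partner lay outside the promoter. Cox6b1 had 1458 and 1463 bp in control against 1405 and 1761 bp in LSD1-LKO. Of the 17 genes named Cox4 to Cox8, without the supercomplex factor Cox7a2l, 8 were in the control list and 11 in the LSD1-LKO list. The other 18 genes of complex IV, Cox7a2l and the assembly factors, were all in both lists.

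In complex V, 3 of 17 marked genes (17.6%) were shorter and 2 (11.8%) longer in both LSD1-LKO libraries, beside 17.3% and 14.6% of all marked genes. Atp5l, subunit g of the membrane part, had 1663 and 2001 bp in control against 683 and 1114 bp in LSD1-LKO. Its TSS lay inside H3K4me2 in both control libraries and in the second-listed LSD1-LKO library. Atp5g2 had 2659 and 2798 bp against 2447 and 2518 bp, and Atp5s, a coupling factor, had 1850 and 2041 bp against 1663 and 1690 bp. Atp5o had 1692 and 1985 bp against 2095 and 2414 bp, and Atp5e had 956 and 1120 bp against 1349 and 1318 bp. The second Atp5o entry, a long locus at chr16:91684398-91926982, had no promoter peak of any kind and 5 LSD1 peaks in its body, which can belong to other genes in that span. Among genes that overlapped between groups, Atp5g1 had 2037 and 2467 bp against 1112 and 2324 bp, Atp5g3 1189 and 1702 bp against 905 and 2002 bp, and Atp5k (subunit e) 1338 and 1754 bp against 1085 and 1588 bp. Atp5b had 1890 and 1927 bp against 1460 and 2001 bp and Atp5a1 1351 and 1656 bp against 1524 and 1479 bp. The central stalk genes Atp5c1 and Atp5d had 2652 and 2228 bp against 1818 and 2652 bp and 1879 and 2458 bp against 1675 and 2346 bp. The peripheral stalk genes Atp5f1, Atp5h and Atp5j had 1172 and 1022 bp against 477 and 1359 bp, 2425 and 2627 bp against 2206 and 2556 bp, and 3228 and 3387 bp against 2660 and 3387 bp. Of the 17 marked genes of complex V, 13 (76.5%) were lower in the first-listed pair and 10 (58.8%) in the second-listed pair, beside 60.1% and 42.1% of all marked genes.

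**Figure D5:**
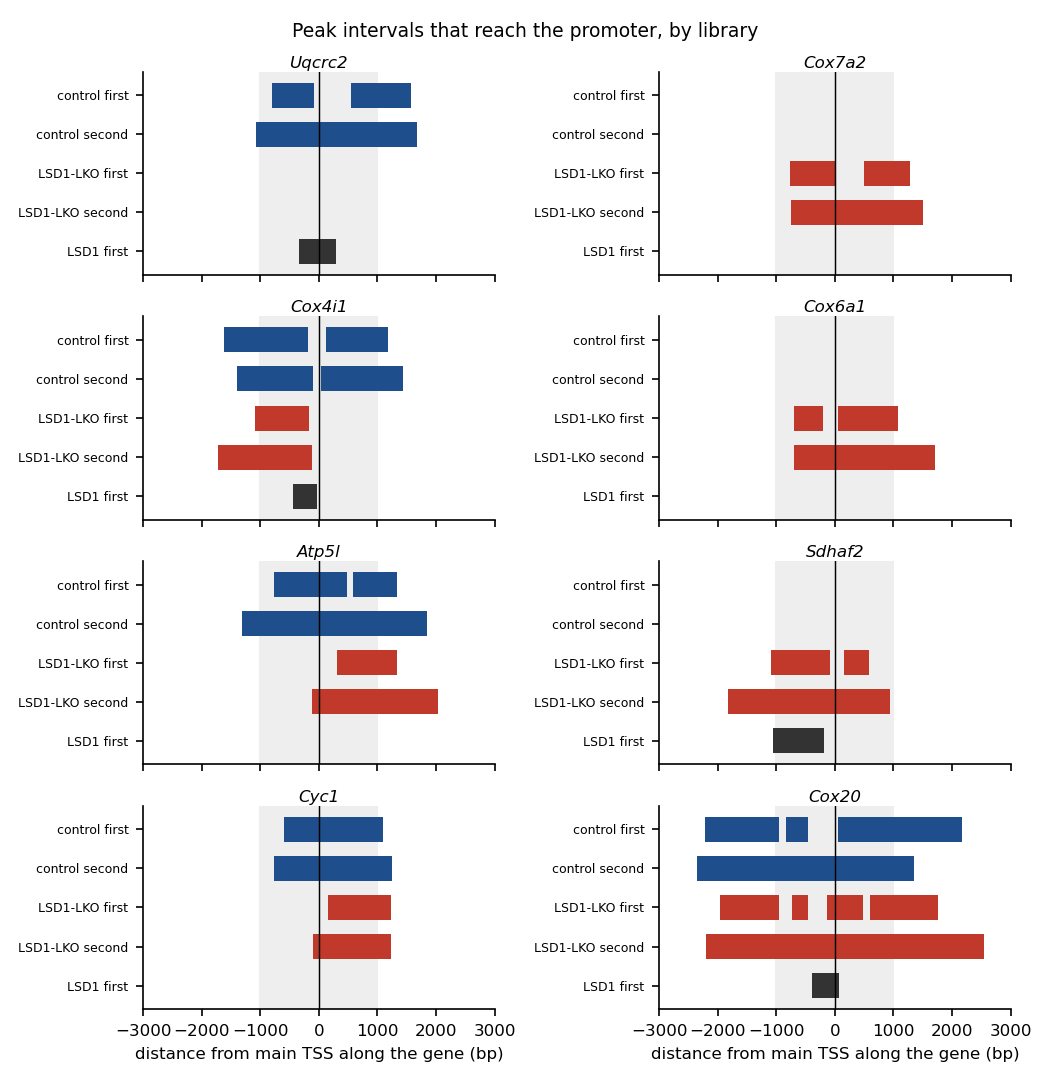
Bars give the H3K4me2 intervals of each library (blue control, red LSD1-LKO) and the first-listed LSD1 interval (black) against distance from the main TSS (bp, transcription to the right) for 8 genes, with the span of 1000 bp on either side shaded. Entries whose first-listed interval reached the promoter are drawn, so Uqcrc2 has control intervals and no LSD1-LKO interval, Cox7a2, Cox6a1 and Sdhaf2 have LSD1-LKO intervals and no control interval, and Cox4i1 lacks the downstream interval in LSD1-LKO.

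The study listed ChIP-qPCR primers for Sdha and Cox6b1, and their amplicons were located in GRCm38 to see where they fall against the peaks. The Cox6b1 pair was named for NRF1, and the paper reported NRF1 ChIP-qPCR at the Cox6b promoter. Its H3K4me2 coverage below is therefore not set beside an H3K4me2 assay. Sdha forward and reverse primers and those of Cox6b1 are shown 5′ to 3′.
Sdha forward: cctctgcaccaacaacatc
Sdha reverse: gtttacaatgaaccgttccc
Cox6b1 forward: ataggaggtcgggcttcttc
Cox6b1 reverse: tagcaaagacgccaatgtca
The Sdha amplicon, chr13:74350992-74351137, was centred 784 bp upstream of a TSS and outside the LSD1 peak, and all of its 146 bp lay inside H3K4me2 in each of 4 libraries. The Cox6b1 amplicon, chr7:30626092-30626253, was centred 21 bp upstream of a TSS. Its 162 bp were inside H3K4me2 in both control libraries and in the second-listed LSD1-LKO library, and 0 bp were covered in the first-listed LSD1-LKO library.

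Many of these genes share a promoter with another gene. Another protein-coding gene had a TSS within 1000 bp at 22 of 73 genes (30.1%), beside 12.9% of all genes. Examples are Surf1 with Surf2 at 22 bp, Cox15 with Cutc at 4 bp and Atp5j (coupling factor F6) with Gabpa, a GABP subunit, at 379 bp. At such promoters a peak cannot be assigned to either gene. Of the 24 genes with LSD1, 5 shared a promoter.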

How the data were processed

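Peak lists were analysed as deposited. The authors mapped reads to mm10 with Bowtie2, called narrow peaks per library with MACS2 and joined the peaks of both libraries of a group with bedtools 2.25.0, with no pooling before calling. The fold enrichment in the deposited lists is the authors' MACS ratio of ChIP to local background in the control library. Each deposited peak also has a −log10 p-value and a −log10 q-value from the authors' MACS run. Controls are input per the labels, with no antibody, and IgG in the methods. Listed p-values reach 0.05, above the 0.01 named in the methods. The lists held 12 further columns of per-library values, scores and summit offsets, which were not used. They hold no reads, so depth is unknown and limits the precision of every value in a way that cannot be given.

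Promoters were all bases within 1000 bp of 54361 starts of protein-coding transcripts (GENCODE M21, GRCm38, chromosome names and lengths checked against the lists). Presence needed 1 bp of overlap with a first-listed interval. Covered length was counted per library, with overlapping peaks merged, and a group's value was the mean of its 2 libraries. Groups were compared by exact permutation and by whether all libraries of a group lay apart. Nothing states whether the libraries are separate animals beyond the mouse codes in the peak names. The genes described, the lists and the motifs were chosen with earlier results of these data known. Named genes are those with an LSD1 promoter peak, those with H3K4me2 in 1 list or neither, the 5 with the most positive and the 5 with the most negative change among non-overlapping genes, genes the study measured by qPCR, and the paralog sets. Atp5k was added under its annotated name after values were seen, as were the other members described. The functions were tested on simulated intervals. Python 3.11.15 was used with numpy 2.4.6, pandas 2.3.3 and matplotlib 3.10.9.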

Additional observations from a re-analysis of the deposited data

How the results depend on the processing

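The counts of genes with H3K4me2 in the control and LSD1-LKO lists varied from 57 to 63 and from 49 to 66 over all alternatives. LSD1 calls depended on the threshold. At a p-value of 1e-05 or below in both libraries 6 genes had LSD1 and 5 an LSD1 peak on control H3K4me2, 15 had H3K4me2 in control only and 7 in LSD1-LKO only, and at a q-value of 0.05 or below these were 7, 6, 8 and 5. The share of all marked genes in control only rose likewise, to 15.6% and 9.64%. The share of all marked genes in LSD1-LKO only was 10.2% and 5.96%. The genes with both LSD1-LKO libraries below both control libraries were 11 of 65 with promoters of 500 bp on either side (15.1% of all marked genes). The genes with both LSD1-LKO libraries above both control libraries were 5 with promoters of 500 bp on either side (12.6% of all marked genes) and 4 of 61 among genes in both lists (10.7% of all such genes), an alternative chosen after seeing the data. Leaving out 1 H3K4me2 library gave 17 to 45 genes below and 8 to 24 above, and a median change of -281.5 to 77 bp, positive without the first-listed LSD1-LKO library. The median change was -15 bp with peaks closer than 500 bp merged (-7.5 bp over all marked genes) and -62 bp with 1 TSS per gene (-36 bp). It was -71 bp at each of 3 stricter limits. Over all marked genes it was -37.5 bp at a p-value of 0.01, -68 bp at a q-value of 0.05 and -90.5 bp at a p-value of 1e-05. These values over the 73 genes stayed within 266 bp of the main value, the median SD between libraries of a group. Among 102 values, 13 counts of genes moved by more than 1.5 times and 1 median changed sign. The cause was not tested. No paired analysis was possible because the peak columns carry no replicate numbers, and the comparison by list position pairs libraries by their place in the lists alone. With 2 libraries a group, the exact permutation test cannot give a p below 0.333, and lists without reads cannot show changes in signal height.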

Other observations

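Respiratory chain genes outside the families above were also counted, 24 in all, among them cytochrome c (Cycs), assembly factors and electron transfer flavoprotein genes. All 24 had H3K4me2 in both lists, and 10 (41.7%) had an LSD1 promoter peak, beside 37.6% of all marked genes. Both LSD1-LKO libraries were below both control libraries at 5 genes (20.8%, beside 17.3%) and above at 2 (8.33%, beside 14.6%). Bcs1l, which inserts the Rieske protein into complex III, had 1705 and 1501 bp in control against 476 and 662 bp in LSD1-LKO, with an LSD1 peak at its promoter. Ttc19, another complex III assembly factor, had 1530 and 1934 bp against 1128 and 1489 bp, and Taco1, a translational activator of the mitochondrial subunit Cox1, had 1340 and 1578 bp against 1012 and 1104 bp. Cycs had 1794 and 1769 bp against 1628 and 1730 bp, and Atpaf1, an assembly factor of the ATP synthase head, had 1441 and 1476 bp against 1433 and 1335 bp. Etfb, a subunit of the electron transfer flavoprotein, was longer in LSD1-LKO, with 1880 and 1927 bp against 2699 and 2497 bp. The other gene above was Tmem177, with 1447 and 1695 bp against 1744 and 1876 bp.

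The rank of the best H3K4me2 promoter peak, its percentile within its own list, had a median of 81.4 over 62 genes of complexes II to V in control and 76.7 over 65 genes in LSD1-LKO, beside 81.7 and 82.2 over all genes with such a peak. The main TSS itself was inside H3K4me2 at 36 and 49 of 66 marked genes in control (54.5% and 74.2%, beside 62.3% and 77.8% of all marked genes) and at 33 and 51 in LSD1-LKO (50% and 77.3%, beside 54% and 77.4%).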
